A study of Mus musculus with 19 samples.

Results

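Immediate early transcription factors are genes that a cell switches on within minutes of a stimulus, without making new protein first. Here they are the 10 genes *Fos*, *Fosb*, *Jun*, *Junb*, *Jund*, *Atf3*, *Egr1*, *Klf2*, *Klf4* and *Ier2*, chosen by symbol among the 27299 genes of the expression table, and all 10 had a row. The study asked how microglia of the retina, its resident macrophages, change their transcripts while a choroidal neovascularisation (CNV), an ingrowth of choroidal vessels, forms after laser injury. Cells were sorted from 6 samples taken 3 days after argon laser treatment, with 6 burns to each retina (CNV d3), and from 6 samples of unlasered mice (control). All mice were 8 weeks old. The labels of the samples name C57BL/6J mice and a sort on CD45, CD11b and CX3CR1 without Ly6C or Ly6G, while the study's methods name *Cx3cr1* GFP/+ mice, which carry GFP in place of 1 *Cx3cr1* allele, and low CD45. Neither source gives the number of animals behind a sample or the time between death and lysis of the cells.

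FOS and FOSB pair with the JUN proteins to form AP-1, which binds the motif TGACTCA and its relatives. ATF3 pairs with JUN proteins too and acts mostly as a repressor. EGR1, KLF2 and KLF4 are zinc finger proteins that bind GC-rich DNA, and IER2 is a small nuclear protein. MAP kinases and the factors SRF, the ELK proteins and CREB switch most of these genes on, and their RNA lasts only minutes to hours. The same genes are also known to be induced while a tissue is dissociated and sorted, and both groups went through that handling. In sorted cells, induction before death and induction during the isolation cannot be told apart.

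The control and CNV d3 levels of *Fos*, *Fosb*, *Jun* and *Junb* are described first, and their promoters are shown here because these AP-1 genes gave the widest range of levels and of differences among the 10 members. Each line is the stretch of 250 bases before the start of the gene's transcript, taken from RefSeq on GRCm38.p6 and written 5′ to 3′ on the strand of the gene. They lie at chr12:85473640-85473889 (plus strand) for *Fos*, chr7:19310046-19310295 (minus) for *Fosb*, chr4:95052223-95052472 (minus) for *Jun* and chr8:84978749-84978998 (minus) for *Junb*. Capitals mark the matches to the motifs named under the sequences.
Fos: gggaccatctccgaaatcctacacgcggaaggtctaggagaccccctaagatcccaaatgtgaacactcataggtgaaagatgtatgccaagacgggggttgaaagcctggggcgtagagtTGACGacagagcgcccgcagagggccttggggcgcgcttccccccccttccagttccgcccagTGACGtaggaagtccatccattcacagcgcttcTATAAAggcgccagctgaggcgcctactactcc
Fosb: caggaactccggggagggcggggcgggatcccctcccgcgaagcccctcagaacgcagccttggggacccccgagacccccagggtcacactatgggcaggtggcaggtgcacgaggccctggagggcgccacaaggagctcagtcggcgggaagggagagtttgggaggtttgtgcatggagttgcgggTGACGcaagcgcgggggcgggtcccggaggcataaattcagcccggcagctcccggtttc
Jun: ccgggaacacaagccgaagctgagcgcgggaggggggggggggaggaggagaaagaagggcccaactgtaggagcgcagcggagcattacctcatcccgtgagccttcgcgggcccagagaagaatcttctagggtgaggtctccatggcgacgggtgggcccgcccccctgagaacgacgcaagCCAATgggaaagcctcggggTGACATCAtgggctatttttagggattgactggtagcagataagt
Junb: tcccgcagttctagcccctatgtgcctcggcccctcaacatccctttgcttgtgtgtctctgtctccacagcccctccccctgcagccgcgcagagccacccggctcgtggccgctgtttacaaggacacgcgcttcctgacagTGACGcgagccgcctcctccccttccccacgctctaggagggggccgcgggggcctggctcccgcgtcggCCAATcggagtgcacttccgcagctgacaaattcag

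Motifs were searched on both strands in the same window of 32851 promoters. The letters TGACG, the core of the cAMP response element to which CREB binds, were present in *Fos* (from 129 and from 66 bases before the start), *Fosb* (60) and *Junb* (106), and in 6 of the 8 members with a promoter sequence, against 17.8% of all promoters. The *Jun* promoter had instead TGACATCA, a variant of the AP-1 site, 45 bases before the start, which 2.93% of promoters held. These letter strings, TGACG and TGACATCA, were added after the sequences had been seen, so the counts are a description. A TATAAA box stood 33 bases before the start of *Fos* (12.4% of promoters), and a CCAAT box 65 bases before *Jun* and 36 bases before *Junb* (33.8%). The whole element TGACGTCA (1.55% of promoters), of which TGACG is a part, was not found in the windows of these 8 members. Nor were the AP-1 site TGACTCA (4.46%), the CArG box of SRF (1.47%) and the EGR site GCGTGGGCG (0.536%). *Egr1* and *Ier2* had no promoter sequence and were not searched. The window of *Jund* ended at position 70697738 of chromosome 8, while its Gencode gene starts at 70698949.

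Of the 10 members, *Fos* and *Fosb* were higher in CNV d3 at an adjusted p under 0.05, none was lower and 8 were not called (limma on log2(normalized count + 1), Benjamini-Hochberg adjusted over 27299 genes). In the same fit 8.29% of all genes were called higher and 4.57% lower (12.9% in either direction), and 2 of 10 members is a small count to set against that. Among genes with a mean of at least 100 normalized counts, the shares were 15.3% and 10.8%. At an unadjusted p under 0.05, 6 members were higher and 0 lower, where 16.3% of all genes were higher and 8.9% lower (25% higher among genes with a mean of at least 100). EdgeR called only *Fosb* higher (7.15% of all genes were) and DESeq2 *Fosb* and *Egr1* (14.5% of the genes it tested), so neither called *Fos*. Both called 0 members lower. *Fos* and *Fosb* were DEG, which needs an absolute log2FC above 1.5 as well (3.91% of all genes were higher DEG and 1.07% lower DEG). With 8 in place of 1 added before the log2, the limma log2FC of *Fosb* was 1.29, under that cut. With 0.5 added it was 4.09. A normalized count is a read count divided by the size factor of its sample, and 1 read was worth 0.739 to 1.99 normalized counts. The mean level was higher in CNV d3 for 7 of the 9 members with enough reads and lower for *Jun* and *Junb*. The median log2FC of the 10 members, with the fitted value of *Jund*, was 0.64, against 0.15 over all genes and 0.06 over genes with a mean of at least 100 normalized counts. In none of the members were the groups fully apart, whereas all CNV d3 samples lay above all controls in 4.64% of genes and below them in 2.83%.

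**Figure D1:**
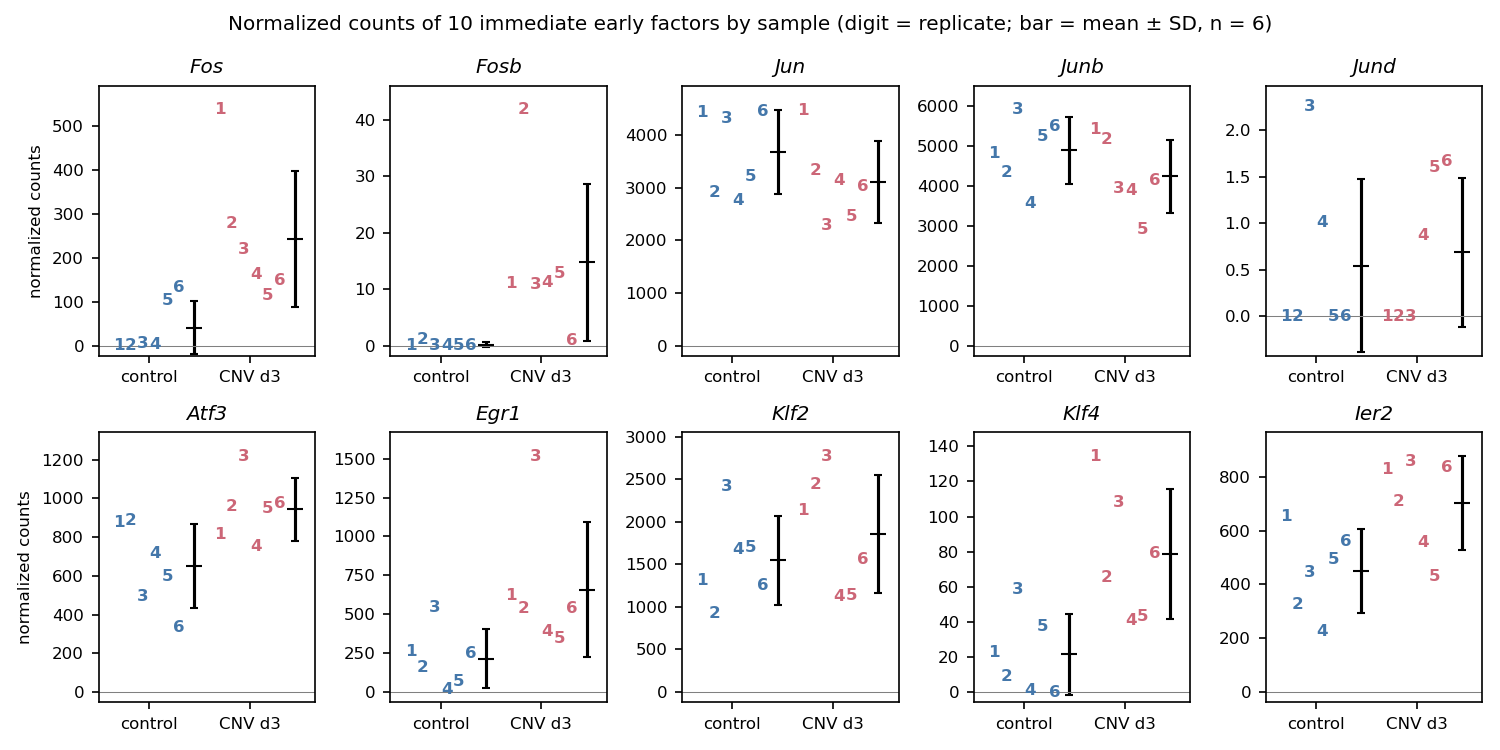
Normalized counts (y axis, linear, one scale per panel) of the 10 members in 6 control (blue) and 6 CNV d3 (red) samples, where each digit is a replicate number and the black bar is the mean ± SD (n = 6). *Fos* was near 0 in 4 controls and between 113 and 538 in CNV d3. The groups overlapped from 2753 to 4456 counts for *Jun* and from 3548 to 5391 for *Junb*.

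*Fos* encodes the founding AP-1 partner of the JUN proteins, at chromosome 12, 85473890 to 85477273 (GRCm38, plus strand). The controls held 0, 0, 5.63, 3.04, 103 and 133 normalized counts in replicates 1 to 6. The CNV d3 samples held 538, 278, 218, 162, 113 and 148 normalized counts. The controls thus fell into 4 samples with at most 5 reads and replicates 5 and 6 with over 100 normalized counts, and the lowest CNV d3 sample lay between these last controls, so that 5 of 6 CNV d3 samples exceeded the highest control. The mean was 40.9 ± 60.7 in control and 243 ± 156 in CNV d3 (SD, n = 6 each). The log2FC was 4.64 with a standard error of 1.15 and an adjusted p of 0.0144 in limma. A two-sided exact permutation test over the 924 ways to label 6 of 12 samples gave p = 0.00433, adjusted to 0.0451 over all genes (5.9% of genes were called higher this way). On the recovered reads edgeR estimated a log2FC of 2.62 (adjusted p = 0.102) and DESeq2 one of 2.58 (adjusted p = 0.115), so the call of *Fos* was lost with both count tools. In limma it was also lost when control replicate 2 or CNV d3 replicate 1, 2, 3 or 6 was left out, with adjusted p between 0.0536 and 0.0603 and a log2FC of 4.03 to 4.75.

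*Fosb* encodes the FOS relative from which the stable splice form ΔFosB is made, at chromosome 7, 19302696 to 19310051 (minus strand). Its level was low throughout. A single read in control replicate 2, or 1.01 normalized counts, was all that the 6 controls held. The CNV d3 samples held 11.1, 41.8, 10.7, 11.3, 12.8 and 0.831 normalized counts, the last being 1 read in replicate 6. Thus 5 CNV d3 samples had at least 12 reads, and replicate 6 overlapped the controls. The mean was 0.169 ± 0.413 in control and 14.8 ± 13.9 in CNV d3 (SD, n = 6 each), and the log2FC was 3.31 with a standard error of 0.70 (limma, adjusted p = 0.00535). With 1 read in control against 107 in CNV d3, the ratio scaled for depth was 77.8 with a 95% exact counting interval of 13.7 to 3103, which covers counting error only. *Fosb* was called by edgeR (adjusted p = 0.00861), by DESeq2 (adjusted p = 0.000192) and by the exact permutation test (adjusted p = 0.0451), and in all 12 limma fits that left out 1 sample. Of the other FOS genes, *Fosl1* had at most 2 reads in any sample, and *Fosl2* rose from 79.9 ± 40.2 to 171 ± 27.4 normalized counts (SD, n = 6 each; log2FC 1.27, adjusted p = 0.0415 in limma and 0.00899 in DESeq2, but 0.0883 in edgeR).

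*Jun* and *Junb* encode the JUN partners that AP-1 needs to bind DNA, JUN itself being the stronger activator. Both were among the more abundant transcripts. *Jun* (chromosome 4, 95049034 to 95052222, minus strand) ranged from 2753 to 4456 normalized counts in control with a median of 3763, and from 2278 to 4474 in CNV d3 with a median of 3079. *Junb* (chromosome 8, 84974484 to 84978718, minus strand) ranged from 3548 to 5899 in control, median 5015, and from 2896 to 5391 in CNV d3, median 4029. The groups overlapped over most of their range for both genes. The log2FC was -0.25 (standard error 0.17, adjusted p = 0.419) for *Jun* and -0.22 (0.15, adjusted p = 0.430) for *Junb* in limma, and neither edgeR nor DESeq2 called either gene. Of the exon bases, 7.28% for *Jun* and 7.52% for *Junb* are shared with genes on the other strand (*Junos* and *Prdx2*), where reads could not be assigned without strand.

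*Jund* (chromosome 8, 70698949 to 70700616, plus strand), the JUN gene known for steady expression in many tissues, had at most 2 reads in any sample, and 0 in 4 controls and 3 CNV d3 samples. No fold is given. In Gencode M21, 52.6% of its exon bases are shared with *Gm11175* on the other strand, which had no row in the analysed table. The reads were counted with Gencode M25, in which the overlap was not looked up. Counting at default settings leaves out reads that lie in 2 genes. The part of this overlap in the low count was not tested.

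*Atf3*, the stress-induced AP-1 and CREB family member (chromosome 1, 191170296 to 191218039, minus strand), ranged from 336 to 884 normalized counts in control with a median of 658, and from 750 to 1219 in CNV d3 with a median of 955. Control replicates 1 and 2 lay within the range of CNV d3 and the other controls below it. The log2FC was 0.60 with a standard error of 0.22, and *Atf3* was not called (adjusted p = 0.0983 in limma, 0.102 in edgeR and 0.0625 in DESeq2).

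Among the zinc finger genes, *Egr1*, which growth factors and stress induce, was higher in CNV d3 on average but its call depended on the tool. Its normalized counts were 263, 156, 542, 13.2, 68.3 and 246 in control and 621, 539, 1517, 389, 345 and 540 in CNV d3. Control replicate 3 reached the level of CNV d3 replicates 2 and 6, and CNV d3 replicate 3 stood far above all others. The mean was 215 ± 187 in control and 659 ± 433 in CNV d3 (SD, n = 6 each), with a log2FC of 2.12 (standard error 0.69, limma adjusted p = 0.0572). DESeq2 called *Egr1* (log2FC 1.62, adjusted p = 0.0294; 14.5% of the genes it tested were higher) and edgeR did not (1.63, adjusted p = 0.0679; 7.15%). Limma called it when genes under 10 normalized counts in more than 6 samples were left out (adjusted p = 0.0341; 16.9% of genes were higher there), and when control replicate 3 was left out (0.0401).

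*Klf4* (chromosome 4, 55527143 to 55532466, minus strand), best known as a pluripotency factor and also active in macrophages, was low, with 22.5, 9.11, 58.6, 1.01, 37.1 and 0 normalized counts in control and 134, 65.2, 108, 40.7, 43.3 and 78.9 in CNV d3. Control replicate 3 alone lay within the range of CNV d3, and the other controls lay below it. The log2FC was 2.84 with a standard error of 0.95 (limma adjusted p = 0.0644, edgeR 0.160, DESeq2 0.0617). As for *Egr1*, limma called it with the filter on low counts (adjusted p = 0.0324) and without control replicate 3 (0.0359). *Klf4* passed this filter only through its CNV d3 samples, since control replicates 2, 4 and 6 were under 10 normalized counts. Its call with the filter therefore adds no support, whereas *Egr1* was above 10 in every sample. *Klf2* (chromosome 8, 72319033 to 72321656, plus strand), a factor that shear stress induces in endothelium and that restrains myeloid activation, overlapped almost fully between the groups. It ranged from 917 to 2419 normalized counts in control, median 1492, and from 1117 to 2771 in CNV d3, median 1841 (log2FC 0.24, standard error 0.26, limma adjusted p = 0.585).

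*Ier2* (chromosome 8, 84661331 to 84662852, minus strand) ranged from 223 to 653 normalized counts in control with a median of 469, and from 431 to 858 in CNV d3 with a median of 768. In 4 CNV d3 samples it exceeded the highest control. The log2FC was 0.68 with a standard error of 0.26, short of the threshold in all tools (adjusted p = 0.103 in limma, 0.0887 in edgeR and 0.0506 in DESeq2).

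**Figure D2:**
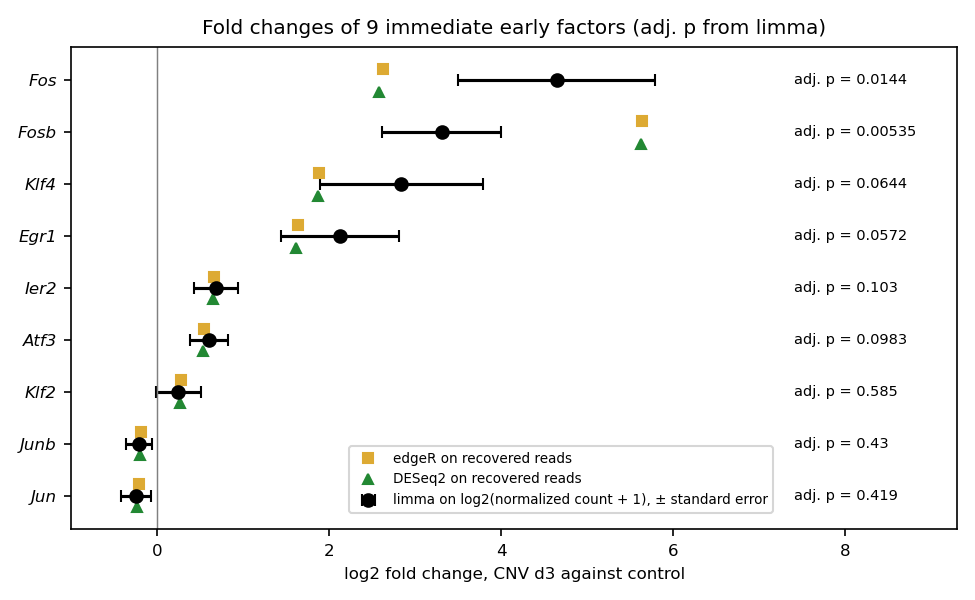
Log2 fold change of CNV d3 against control (x axis) for the 9 members with enough reads, from limma on log2(normalized count + 1) with its standard error (circles), edgeR (squares) and DESeq2 (triangles), with the limma adjusted p at the right. For *Fos* the limma value of 4.64 lies above the 2.62 and 2.58 of the count tools, and for *Fosb* the 3.31 lies below their 5.64 and 5.63.

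Compared per kilobase of merged exon, the level of the members fell in nearly the same order in both groups. In control *Junb* led with a mean of 2120 normalized counts per kilobase, followed by *Jun* (1154), *Klf2* (836), *Atf3* (302), *Ier2* (296), *Egr1* (47.9), *Fos* (17.4) and *Klf4* (7.02). *Jun* lay above *Klf2* in 5 of 6 controls, *Atf3* above *Ier2* in 2, *Egr1* above *Fos* in 4 and *Fos* above *Klf4* in 3, so these neighbours could not be ordered. In CNV d3 the means per kilobase were 1839 for *Junb*, 1006 for *Klf2*, 977 for *Jun*, 462 for *Ier2*, 438 for *Atf3*, 147 for *Egr1*, 103 for *Fos*, 25.7 for *Klf4* and 2.36 for *Fosb*. There *Klf2* was above *Jun* in 2 of 6 samples, *Ier2* above *Atf3* in 4 and *Egr1* above *Fos* in 5. *Jun* and *Junb* lay above *Fos* and *Fosb* per kilobase in both groups. *Jund* (0.326 in control and 0.413 in CNV d3) and *Fosb* in control (0.0270) were under the floor of 3 reads, so they were not ordered.

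The share of the 10 members' summed normalized counts that fell on *Jun* and *Junb* was 70.5% to 79.7% in control, median 74.2%, and 48.1% to 69.9% in CNV d3, median 63.6%. *Fos* and *Fosb* together took 0% to 1.07% in control and 1.32% to 3.68% in CNV d3. The sum itself covered 8932 to 14173 in control and 8385 to 14936 in CNV d3. These shares were chosen after the values were seen, so the lack of overlap carries no test.

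The members did not vary as 1 block within a group. Over the 7 members with a mean of at least 100 normalized counts, control replicate 4 was the lowest control for *Jun*, *Junb*, *Egr1* and *Ier2*, and control replicate 3 the highest for *Junb*, *Egr1* and *Klf2*. CNV d3 replicate 1 was the highest of its group for *Fos*, *Jun* and *Junb*. CNV d3 replicate 3 was the highest for *Atf3*, *Egr1*, *Klf2* and *Ier2* and at the same time the lowest for *Jun*. CNV d3 replicate 5 was the lowest for *Fos*, *Junb*, *Egr1* and *Ier2*. The controls with the most *Fos*, replicates 5 and 6, were highest for none of the others except *Jun* in replicate 6, which was also the lowest for *Atf3*.

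**Figure D3:**
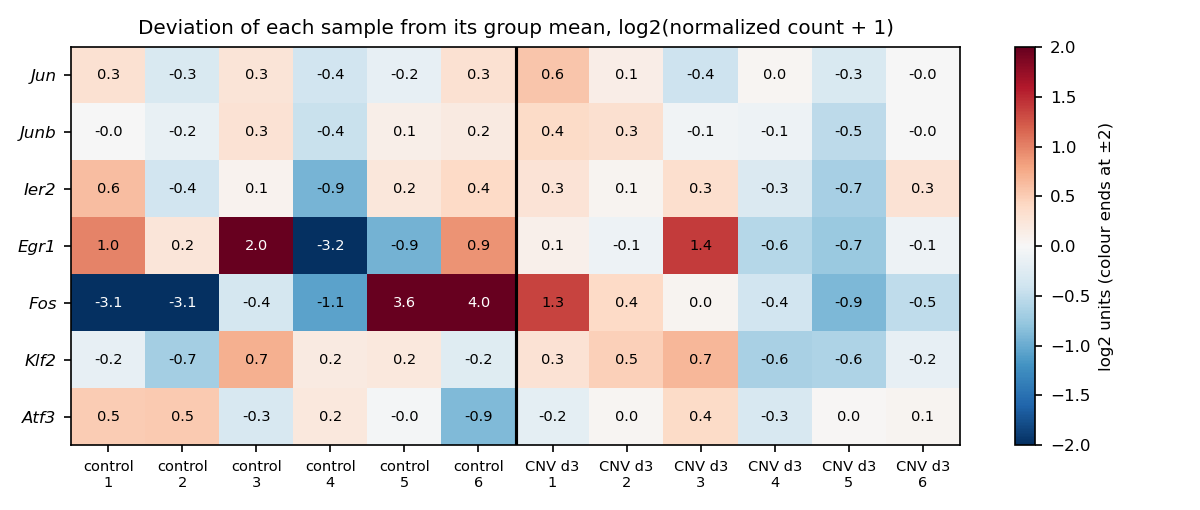
Deviation of each sample from the mean of its group in log2(normalized count + 1) for the 7 members with a mean of at least 100, with 6 control columns to the left of the line and 6 CNV d3 columns to the right. *Fos* and *Egr1* carry the widest deviations among the controls, and CNV d3 replicate 5 is at or below its group mean for nearly every member.

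Of 9706 other genes at that level, those whose group-centred, standardised profile over the 12 samples lay nearest to the mean profile of these 7 members were *Snrpb* (root mean square difference 0.400 SD), *Stub1* (0.420), *Arrb2* (0.447), *Sdf2l1* (0.460) and *2210016F16Rik* (0.473), against a median of 1.41 over all these genes. Of the members themselves *Junb* (0.421) and *Ier2* (0.473) lay nearest to it and *Atf3* (1.58) farthest. Each member is part of that mean profile, which lowers its distance, so these values cannot be set against those of the 5 genes. None of these 5 genes was called between the groups.

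The relatives of the members moved in both directions. Counts in this list and in the lists below are to be read beside the 8.29% of all genes called higher and 4.57% lower. At a mean of at least 100 normalized counts the shares were 15.3% and 10.8%. Among 17 other genes of AP-1 and of the related C/EBP family 1 was higher and 2 were lower, with a median log2FC of -0.14. *Fosl2* was the one that rose, and *Maf* (log2FC -0.71, limma adjusted p = 0.00134), a large MAF protein, and *Atf4* (-0.45, 0.00856), the effector of the integrated stress response, fell. Among 17 EGR and KLF relatives with a row, 1 was higher and 4 were lower, with a median of -0.35. *Klf10*, which TGF-β induces, rose from 556 ± 252 to 1487 ± 254 normalized counts (log2FC 1.67, adjusted p = 0.0169). *Klf12* fell from 578 ± 93.2 to 143 ± 58.5 (log2FC -2.10, adjusted p = 0.000156), and *Klf7* (-0.95), *Klf3* (-0.69) and *Klf6* (-0.57) fell as well. For *Klf7*, 39.4% of the exon bases are shared with genes on the other strand.

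Of 21 other immediate early genes 5 were higher and 2 lower (8.29% and 4.57% of all genes), with a median log2FC of 0.23. *Plk2*, a polo-like kinase, rose from 23.6 ± 38.6 to 179 ± 152 normalized counts (log2FC 4.75, limma adjusted p = 0.0275, but 0.123 in edgeR and 0.190 in DESeq2). *Gadd45b*, a stress sensor, rose from 23.0 ± 21.2 to 159 ± 89.7 (log2FC 3.67, adjusted p = 0.0302). *Ccn1*, a matricellular protein, rose from 1 read over all controls to a mean of 18.6 ± 9.51 normalized counts, with adjusted p = 0.000388. *Nr4a2*, an orphan nuclear receptor (mean 20.9 ± 15.1 in CNV d3), and *Arc* (22.1 ± 27.4), which had no read in control, were the other called genes, named here because the count is small. *Rhob*, a small GTPase (log2FC -0.88), and *Ier5* (-0.43) fell. *Sgk1*, the most abundant gene of the list, had 24921 ± 3143 normalized counts in control and 20108 ± 4113 in CNV d3 (adjusted p = 0.110).

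Feedback inhibitors end the immediate early response, DUSP and SPRY proteins by damping MAP kinases and ZFP36 and BTG proteins by promoting RNA decay. Of 16 such genes 1 was higher and 4 were lower, with a median log2FC of 0.07 (0.0063 with the genes at 0 in a whole group set to their bound). *Dusp6*, a phosphatase of ERK and the most abundant of them, fell from 14391 ± 2349 to 6497 ± 1293 normalized counts (SD, n = 6 each; log2FC -1.15, limma adjusted p = 9.24e-05). *Spry1* (-1.16), *Btg2* (-0.80) and *Zfp36l1* (-0.56), the last named after its value was seen, fell too. Of the exon bases, 24.4% for *Spry1* and 55.9% for *Zfp36l1* are shared with genes on the other strand (*Gm42922* and *Gm26669*). *Dusp4*, without a read in control, reached a mean of 4.93 ± 4.91 in CNV d3 (adjusted p = 0.0235, but 0.0552 in DESeq2). Of 25 upstream kinases and factors 2 were higher and 2 lower, with a median of 0.04. *Elk4*, an SRF partner (log2FC 1.08, adjusted p = 0.0387, but 0.0554 in edgeR), and *Mapk3*, which encodes ERK1 (0.45, 0.0102), rose. *Mef2c* fell from 23084 ± 2054 to 11444 ± 1524 (log2FC -1.02, adjusted p = 1.22e-05) and *Mef2a* fell by 0.60 on the log2 scale (0.00339). Both encode MADS box factors, as does *Srf*, which was not called (adjusted p = 0.165).

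Over these 5 lists and the heat shock and inflammatory lists below, 31 of 116 genes (26.7%) were called, 15 higher and 16 lower. Of the 87 with a mean of at least 100 normalized counts 26 were called, against 26.1% of all genes at that level and 12.9% of all genes, so the share called was near that of other genes at that level. The 15 higher genes had a median control mean of 147 normalized counts, and 7 of them were under 100. The 16 lower genes had a median of 4420, and 13 of them were at 1000 or more. This split by level was chosen after the values were seen, and the control values enter both the level and the fold change.

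**Figure D4:**
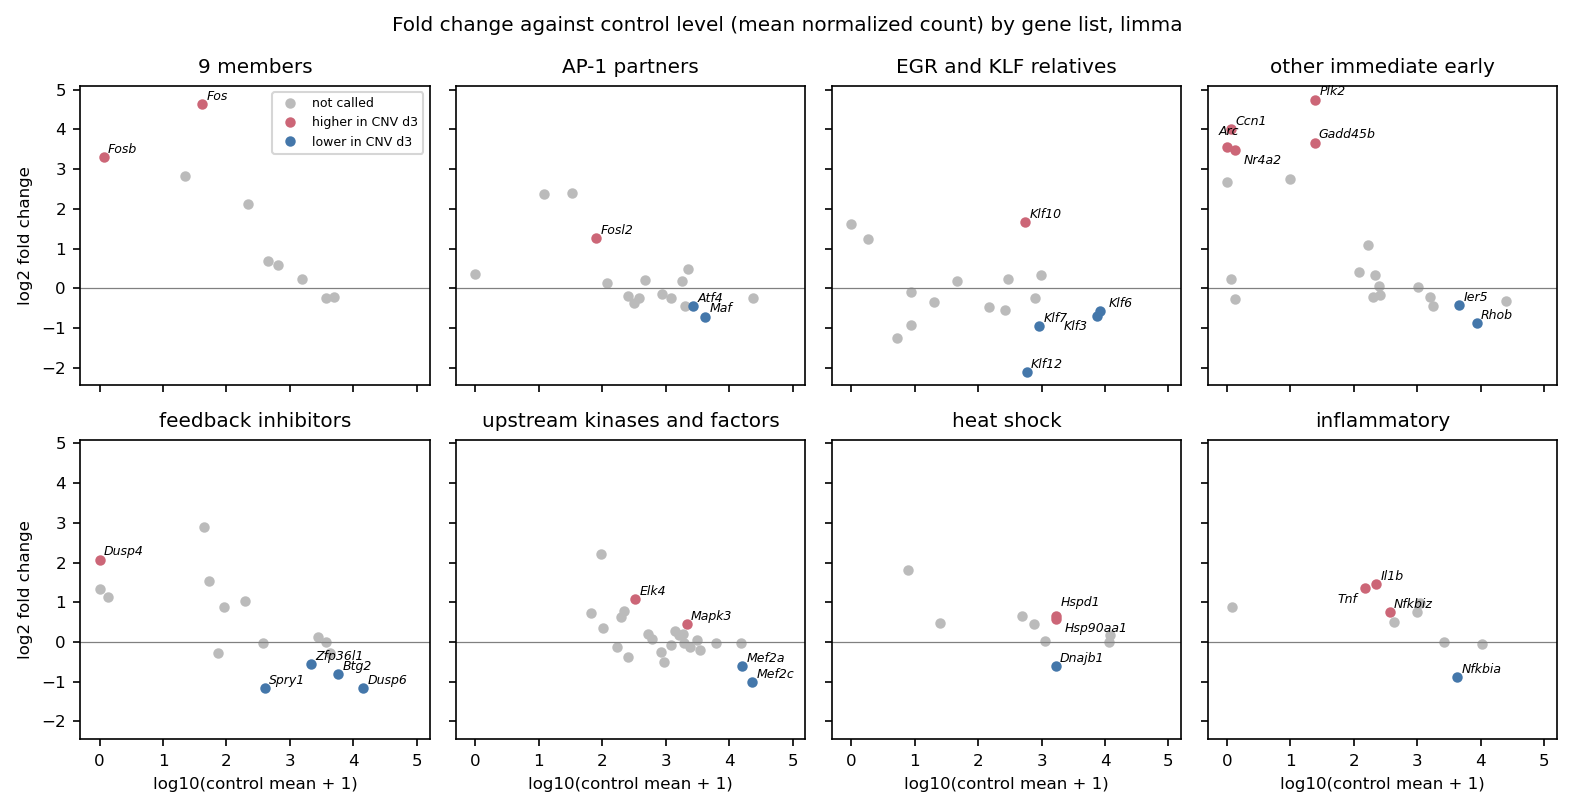
Log2 fold change of CNV d3 against control from limma (y axis) by log10 of the control mean of normalized counts + 1 (x axis), with 1 point per gene, for 9 members and 7 lists of related genes, coloured by call at an adjusted p under 0.05. Called genes with low control means lie above 0, and those that fell have control means from 404 to 23084 normalized counts. The folds of genes at 0 in all controls are fitted values that depend on the pseudocount.

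Genes that tissue dissociation is known to induce were counted in a pair of lists, to be read beside the 26.1% of genes with a mean of at least 100 that were called in either direction. Of 10 heat shock genes 2 were higher and 1 was lower, with a median log2FC of 0.46. The chaperones *Hspd1* (log2FC 0.65, limma adjusted p = 0.00535) and *Hsp90aa1* (0.57, 0.0145) rose and *Dnajb1* (-0.61, 0.0102) fell. *Hspa1a* and *Hspa1b*, near-identical copies that heat induces most, had means of 6.96 to 24.1 normalized counts in either group and were not called. Reads that fit both copies may not have been counted, and the part of this in their low counts was not tested. *Hsp90ab1*, the most abundant, had 12145 ± 1146 in control and 13690 ± 1083 in CNV d3 (adjusted p = 0.178). Of 10 inflammatory genes 3 were higher and 1 was lower, with a median of 0.76. *Il1b* (log2FC 1.47, adjusted p = 0.0496, but 0.124 in edgeR and 0.0826 in DESeq2), *Tnf* (1.35, 0.0402, but 0.0556 in edgeR) and *Nfkbiz* (0.75, 0.0229) rose, and *Nfkbia*, the inhibitor of NF-κB, fell from 4264 ± 422 to 2346 ± 483 (log2FC -0.88, 0.000356). *Cd83*, the most abundant, had 10438 ± 2928 in control and 9758 ± 1181 in CNV d3 (adjusted p = 0.805). The part of dissociation in the levels of the members was not tested.

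Other properties of the samples moved with the groups. Reads on genes numbered 10963178 to 22335233 in control and 23532260 to 29523018 in CNV d3, and all controls but only CNV d3 replicate 4 were listed in 2 parts, so depth and listing cannot be told apart from the group. With every sample thinned to the shallowest one, *Fos* (adjusted p = 0.0395) and *Fosb* (0.0137) were still called in limma. The sum of 10 microglial markers was 1194110 to 1353640 normalized counts in control and 668269 to 991482 in CNV d3. Of the 10, 6 fell, *P2ry12* and *Tmem119* among them, and *Itgam* rose. None of the 10 was near 0. Of the exon bases of *Itgam*, 68.7% are shared with *Gm49368*. The sum of 9 monocyte markers was 41.5 to 339 in control and 589 to 2952 in CNV d3. Of these *Ly6c2*, *Ccr2* and *Plac8* rose, while *Ly6c2*, the gene of the marker excluded in the sort, had a mean of only 12.9 ± 8.26 in CNV d3 and no read in control. In bulk samples, more cells of another type and more RNA per cell cannot be told apart. The summed markers of endothelium (521 to 990 in control, 482 to 970 in CNV d3), photoreceptors (699 to 6911, 588 to 12461), neurons (331 to 1255, 541 to 1258), Müller glia (6846 to 9909, 8032 to 9022), neutrophils (9051 to 11561, 4949 to 10765), pericytes and fibroblasts (1.00 to 16.1, 0 to 20.1) and retinal pigment epithelium (44.0 to 242, 59.8 to 258) overlapped. The neutrophil sum was nearly all *Csf3r* (10221 ± 910 in control, 8601 ± 2111 in CNV d3), and most of the Müller glial sum was *Glul* (5723 ± 911, 4734 ± 580). In the Müller glial list the median log2FC was 1.71, and *Vim*, an intermediate filament gene, rose from 175 ± 82.1 to 2277 ± 877 (SD, n = 6 each; log2FC 3.79, limma adjusted p = 4.09e-05), with all CNV d3 samples above all controls. Of the genes in these overlapping lists, limma called 1 endothelial, 2 Müller glial and 1 neuronal marker higher and 1 endothelial and 1 Müller glial marker lower. *Tek*, *S100a9* and *Lum* had at most 3 reads in any sample. The part of other cell types in the levels of the members was not tested.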

How the data were processed

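Retinal microglia RNA of 6 control and 6 CNV d3 samples was analysed. The authors mapped single reads with STAR 2.7.2b to GRCm38.p6 with Gencode M25, merged 2 flow cells per sample, counted with featureCounts 1.6.4 and removed genes without reads. The deposited signal is the read count divided by the DESeq2 1.22.2 size factor. In all samples 100% of values were whole multiples of 1 read (tolerance 0.01 reads), so reads were recovered. The deposited table also holds the authors' group means, fold changes and p-values, which were not used.

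Log2(normalized count + 1) was compared with limma 3.58.1 (moderated, variance trend, no filter, 6 against 6, R 4.3.3). Alternatives were edgeR 4.0.16, DESeq2 1.42.0, other pseudocounts, a filter, other scalings, a replicate block, thinning, leaving out each sample and an exact permutation test, the last added after seeing the data. All tools were tested on simulated data. There, limma without a filter missed many changes of moderate size that it found with the filter and that edgeR and DESeq2 found, so a gene that limma did not call may still differ. Members and gene lists were chosen with earlier results of these data known. The genes named are the members, in each list up to 3 called genes with the largest and 3 with the smallest log2FC and the most abundant gene, and the 5 nearest profiles. *Fosl1*, *Srf*, *Hspa1a*, *Hspa1b* and the markers named were chosen after their values were seen. The most abundant gene of 1 list is not reported here. The labels name separate samples but not separate animals, so p-values measure the spread between these samples. Replicates of 1 group differed by far more than counting noise. Positions are from Gencode M21 (27238 of 27299 genes matched), and 8 members had a RefSeq promoter. The report gives the range of total reads in each group, and 3 reads were the floor.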

Additional observations from a re-analysis of the deposited data

Results flagged for a closer look

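In 18 groups of 6 samples (9 members in control and in CNV d3), 3 values lay far from the rest of their group by Dixon's ratio at its 95% level. Chance passes this level in about 1 in 20 groups where values are normally distributed. The ratio was taken on normalized counts, whose distribution was not checked, and not on the log2 scale of the comparisons. These values are therefore a description on that scale alone. *Fosb* in CNV d3 replicate 2, at 41.8 normalized counts, was the highest of its group, and the next was 12.8. *Egr1* in CNV d3 replicate 3, at 1517 normalized counts, was the highest of its group, and the next was 621. *Fosb* in control replicate 2, at 1.01 normalized counts, was the only control with a read, so this value rests on that read alone. With the other 5 controls at 0 any single read passes, and the chance rate above does not apply to it.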

How the results depend on the processing

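Directions of all 9 members with a fold were the same under every alternative run. The number of members called higher was 2 in the main comparison, 1 with edgeR (*Fosb*) and 2 with DESeq2 (*Fosb*, *Egr1*). It was 3 with the filter (*Fos*, *Egr1*, *Klf4*, while *Fosb* was removed by it), 3 with the replicate block and 1 to 4 when single samples were left out. *Fos* and *Klf4* passed the filter only through their CNV d3 samples, so their calls with it add no support. The log2FC of *Fos* was 2.62 with edgeR and 2.58 with DESeq2, both no longer called, and 4.03 to 5.44 without single samples (called in 7 of 12 fits). With pseudocounts of 8 and 0.5 it was 3.25 and 5.02, and that of *Fosb* was 1.29 and 4.09, all still called. That of *Egr1* was called at 2.12 with the filter and with the replicate block (adjusted p = 0.0128) and at 1.62 with DESeq2, and was 1.48 to 2.53 without single samples. That of *Klf4* was called at 2.84 with the filter, and was 2.17 to 3.35 without single samples. The causes were not tested. Replicate numbers did not pair the samples (correlations of deviations from -0.053 to 0.071), and the block changed no call of the other 8 members with a fold. Over all genes, 2264 were higher and 1247 lower in the main comparison, 2493 and 2170 with DESeq2 (53.5% higher, against 64.5%), and 1737 to 2319 and 1022 to 1455 without single samples. For members at or near 0 reads in control, the part of depth in these low counts was not tested.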
